A study of Drosophila melanogaster with 2 samples.

Results

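The glutathione S-transferase (GST) genes of adult Drosophila were taken as every gene whose FlyBase symbol starts with *GstD*, *GstE*, *GstO*, *GstS*, *GstT* or *GstZ*, and were chosen by name and not by any value. The 35 genes are 35 of the 15423 listed in 2 single-nucleus RNA-seq count matrices, and they held 81015 of 37238167 UMIs (unique molecular identifiers, each standing for 1 captured RNA molecule). The study dissected nephrocytes, the filtering cells beside the heart and esophagus, from adult flies 5 to 7 days old, with 1 sample of females and 1 of males. All flies were w1118; Dot-Gal4, UAS-GFP.nls, in which the Dot driver puts a nuclear green fluorescent protein into nephrocytes, and tissue of many flies was pooled. Nuclei were stained for DNA with Hoechst and collected by flow sorting. The 2 matrices are called the larger and the smaller here, since neither is tied to a sample by its column names, and the sexes are not compared. Each sample held 1 sex, so a difference between the matrices cannot be told apart from one between the sexes. All 700 male accessory gland-like nuclei lay in the smaller matrix, and 511 of them were in a cluster that also raised spermatocyte markers.

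GST enzymes join the tripeptide glutathione to reactive or toxic molecules, which makes these more soluble and ready for export. The delta (*GstD*) and epsilon (*GstE*) classes are found in arthropods and are known for breaking down insecticides and products of oxidation. The omega (*GstO*), sigma (*GstS*), theta (*GstT*) and zeta (*GstZ*) classes are shared with other animals, and some of their members act in single metabolic pathways. In flies the fat body, gut and Malpighian tubules are known as sites of detoxification, and several *GstD* genes respond to the *cnc* transcription factor when oxidants free it from *Keap1*.

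The larger matrix held 7890 nuclei barcodes and 19107558 UMIs, and the smaller held 5978 barcodes and 18130609 UMIs. Median depth was 1315 and 1481 UMIs per nucleus, and 14 barcodes occurred in both matrices. Clustering without the GST genes and 18 glutathione-linked genes gave 33 clusters of the 13867 nuclei with at least 200 genes. Of these, 9 marker-named classes and 14 unnamed clusters had at least 20 nuclei in each matrix, and these 23 groups carry the comparisons. Clusters whose markers gave no name are called by their number and leading genes. The nephrocyte-like class held 94 nuclei, 38 in the larger matrix and 56 in the smaller, and raised all 8 markers of its list, including *sns* and *Cubn*. The fat body-like class came from different clusters, cluster 0 for the larger and cluster 3 for the smaller matrix, which bears on each of its values below. Levels are given as CPM, counts scaled to a total of 1000000 in each group. The library kit reads the 3′ end of RNAs, and genes are set side by side by their UMIs, with no correction for gene length.

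Theta genes held most of the family's UMIs. The 4 *GstT* genes had 41627 UMIs, which is 51.4% of the family, and *GstT4* alone had 21449 in the larger matrix and 14909 in the smaller, or 44.9% of the family. The 14 *GstE* genes had 24.4% of the family's UMIs, the 11 *GstD* genes 12.4%, *GstS1* 7.93%, the 3 *GstO* genes 3.59% and the 2 *GstZ* genes 0.304%. *GstD1*, an enzyme that can remove chlorine from DDT, had 4379 and 5047 UMIs in the larger and smaller matrix, and it held nearly all of the delta UMIs. *GstE12* had 4762 and 3752 UMIs, and *GstS1*, which conjugates products of lipid oxidation, had 4241 and 2184. *GstT3*, with 2048 and 1560, came next.

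**Figure D1:**
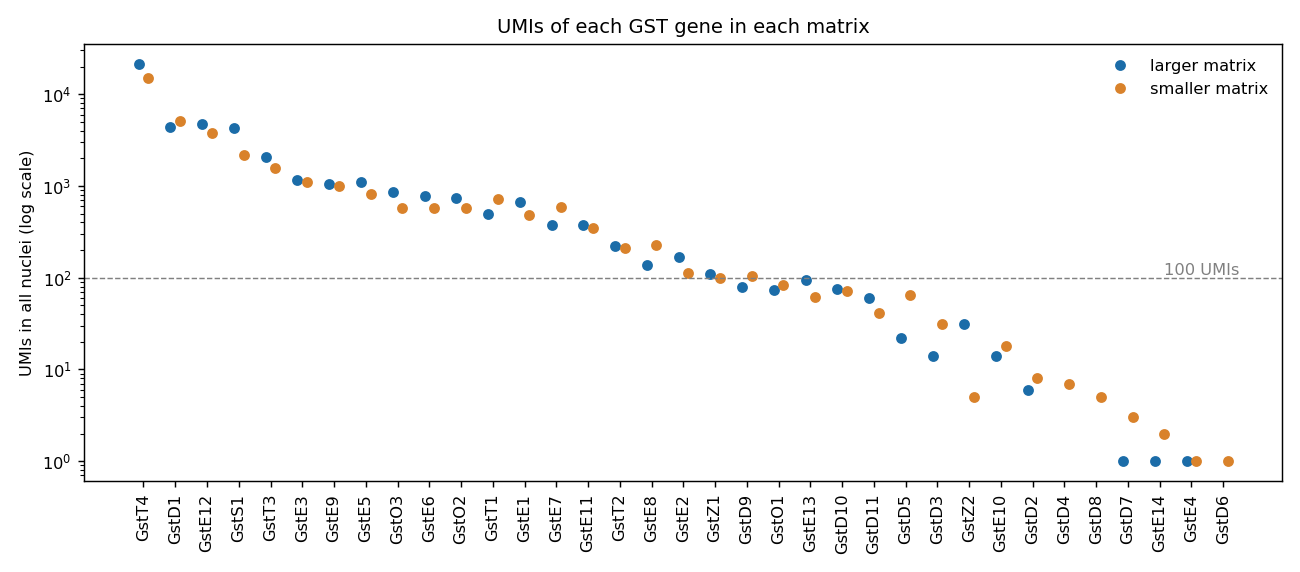
UMIs of each of the 35 GST genes in all nuclei of the larger matrix (blue) and the smaller matrix (orange), on a log scale, with genes ordered by their total and 0 counts not drawn. GstT4 stands above every other gene in both matrices, and 11 genes fall under 100 UMIs in total.

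In all, 24 genes reached 100 UMIs over both matrices and are described by group. The other 11 were *GstD2* to *GstD8*, *GstE4*, *GstE10*, *GstE14* and *GstZ2*. *GstD5* had 22 and 64 UMIs in the larger and smaller matrix, *GstD3* had 14 and 31, *GstZ2* had 31 and 5, and *GstE10* had 14 and 18. *GstD4*, *GstD6* and *GstD8* are not listed in the larger matrix and had 7, 1 and 5 UMIs in the smaller. *GstE14*, known as Noppera-bo and needed for ecdysone synthesis in the prothoracic gland of larvae, had 1 and 2 UMIs, and *GstE4* had 1 and 1. *GstD2* had 6 and 8, and *GstD7* had 1 and 3.

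By the Ensembl annotation, 17 members lie on chromosome arm 2R, 13 on 3R, 3 on 3L and 2 on X. For 26 members the next gene on the arm is another member, in runs that hold *GstD2* to *GstD8* and *GstE4* to *GstE9*. Overlap with a gene on the opposite strand was found for 7 members: *GstE1* with *GstE10*, *GstE9* with *imd*, *GstE12* with *CG3894*, *GstE13* with *CG18659*, *GstT2* with *CG12926* and *GstO2* with *se*. The sources used here do not say whether counting used strand, so reads of these pairs, and of neighbouring members with alike sequences, may have been shared out differently.

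Among the 9 named classes, the sum of all 35 genes was lowest in the heart muscle-like nuclei and near one level at the top. Over both matrices it was 2014 CPM in nephrocyte-like, 2001 CPM in hemocyte-like and 1999 CPM in Malpighian principal cell-like nuclei, whose exact 95% Poisson intervals overlapped, and 1073 CPM in heart muscle-like nuclei. Across the 9 classes, 17 GST genes were abundant enough to test and 6 differed among the classes (edgeR quasi-likelihood F test with the matrix as a block, adjusted p at most 0.05), beside 58.4% of all 5738 genes tested. Without the block 1 member differed, at a coarser clustering (Leiden resolution 1) 2, and with the GST and linked genes kept in the clustering 3. Of gene and class pairs, 6 were called higher and 5 lower than the mean of the other 8 classes, which is 3.92% and 3.27% of the members' pairs, where 9.39% of all pairs were called higher and 4.62% lower. Fat body-like nuclei had 2 members higher (*GstE12* and *GstT1*, background 22.3%) and 3 lower (*GstD1*, *GstE5* and *GstE6*, background 21.4%). Heart muscle-like nuclei had *GstD1* higher (background 16.1%) and 2 members lower (*GstE12* and *GstE9*, background 4.67%). The remaining calls, all higher, were *GstS1* in nephrocyte-like nuclei (background 5.54%) and *GstE6* in 2 classes. These were the Malpighian principal cell-like (background 5.33%) and neuron-like nuclei (background 8.45%). The log2 differences of *GstE6* were 1.24 (SE 0.36, edgeR adjusted p = 0.0383) and 1.10 (SE 0.34, adjusted p = 0.0462). Its levels in the larger and smaller matrix were 46.0 and 52.3 CPM in the former and 44.5 and 46.8 CPM in the latter. With the unnamed clusters included, these lay above 15 and 18, and above 14 and 16, of 22 other groups. No member was called in the body muscle-, oenocyte-, hemocyte- or midgut enterocyte-like classes.

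*GstS1* in the nephrocyte-like nuclei had 30 UMIs in the larger matrix and 27 in the smaller, which is 544.5 and 181 CPM. The other 22 groups had medians of 152 and 104 CPM. *GstS1* was higher than the mean of the other named classes by 1.34 (log2, SE 0.33, edgeR adjusted p = 0.0108), and against all 22 other groups the difference was 1.04 (SE 0.39, adjusted p = 0.114). The nephrocyte-like level lay above 20 of the 22 other groups in the larger matrix and above 19 in the smaller. *GstE6* had 0 and 1 UMI in these nuclei, where 3 UMIs would stand for 14.7 CPM over both matrices, and *GstT4* had 30 and 95 UMIs, which is 544.5 and 636 CPM.

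When the 14 unnamed clusters entered the same fit, the highest family levels were found in clusters that carry no class name. The 35 genes summed to 5184 and 4065 CPM in cluster 1 of the larger and smaller matrix (leading genes *Jhbp13*, *CG9747* and *Dop2R*), 3917 and 3816 CPM in cluster 5 (*NPF*, *lcs*), 4019 and 3119 CPM in cluster 2 (*zye*, *Cyp4aa1*, *Fatp2*) and 2259 and 3193 CPM in cluster 15 (*CG13285*, *Oamb*). Cluster 15 was high in the smaller matrix only, since in the larger matrix clusters 26, 6, 21 and 9 (3083, 3050, 2984 and 2939 CPM) and nephrocyte-like nuclei (2323 CPM) lay above it. Of 20 members tested over 23 groups, 15 differed among the groups, beside 72.5% of 6213 genes. Pairs called higher numbered 47 and pairs called lower 18, which is 10.2% and 3.91% of the members' pairs, where 10.3% and 5.11% of all pairs were called. The 47 include calls of *GstD5*, *GstE8* and *GstT2*, which passed the abundance filter through groups where they are high. Such calls say nothing of these genes, so the share of higher calls is a description.

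**Figure D2:**
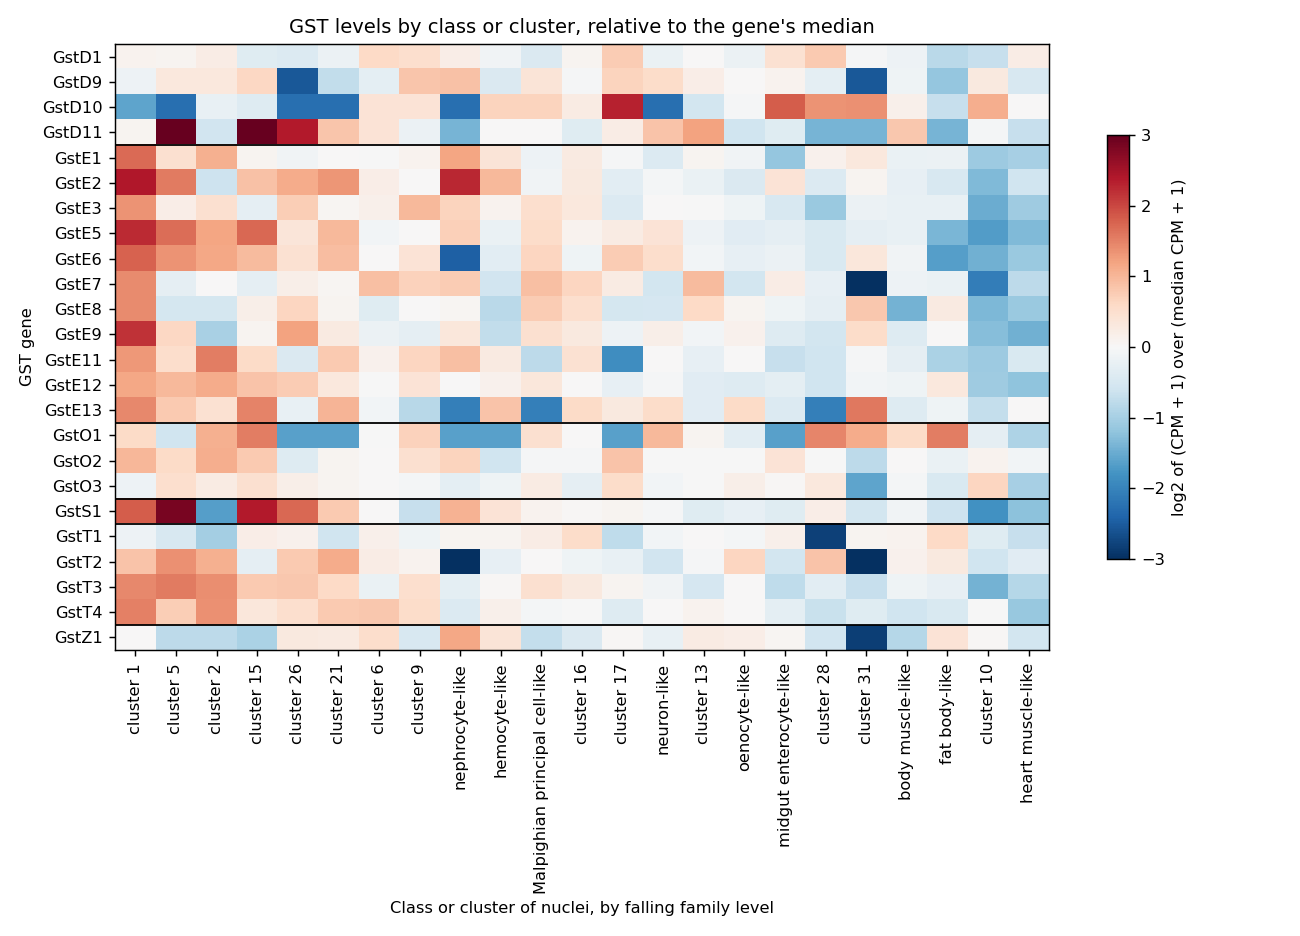
Level of the 24 GST genes with at least 100 UMIs in 23 classes and clusters, as log2 of CPM + 1 over the gene's median CPM + 1 (red above, blue below), both matrices summed. Columns run from the highest family level (cluster 1) to the lowest (heart muscle-like), and most epsilon rows and the GstT3 and GstT4 rows are red in cluster 1.

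Cluster 1 held the widest set of raised members. Of the 20 tested, 15 were called higher and 0 lower there, where 18.8% of all genes were called higher, and the median log2 difference was 1.44 for the members and -0.11 for all genes. The 15 were *GstE1*, *GstE2*, *GstE3*, *GstE5* to *GstE9*, *GstE11*, *GstE12*, *GstE13*, *GstO2*, *GstS1*, *GstT3* and *GstT4*. Of these, *GstE8* passed the abundance filter through its highest sums, cluster 1 of the larger matrix and Malpighian principal cell-like nuclei of the smaller. The call of *GstE8* in cluster 1 thus says nothing of it. Within the larger matrix 18 of the 20 members, and within the smaller 17, lay above the mean of the other groups. No share over all genes stands beside these within-matrix counts, and *GstE8* is among them. Cluster 1 was picked for the highest family level in the same data, so high counts of members follow from that choice. The counts are a description and no test of enrichment. Of the tested members, *GstD1*, *GstD5*, *GstO3*, *GstT1* and *GstT2* were not called in this cluster.

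Of the marker lists, that of the ejaculatory duct and bulb was high in clusters 1, 2 and 5. Of its 5 matched genes, *EbpIII* gave nearly all UMIs, with 33025 and 16546 CPM in cluster 1 of the larger and smaller matrix, 19740 and 15269 CPM in cluster 2, 12298 and 10183 CPM in cluster 5, and 4864 and 4137 CPM in cluster 15. The other 19 groups spanned 2601 to 13141 CPM in the larger matrix and 982 to 6580 CPM in the smaller (medians 6244 and 2683 CPM). *EbpII* had 0 UMIs in every group and *Dup99B* had 0 UMIs in the larger matrix, and *Gld* and *Est-6* had at most 10 and 13 UMIs in any of these 4 clusters. Over the 23 groups the family's CPM and that of *EbpIII* had r = 0.89 in the larger matrix and 0.84 in the smaller, as a description, and the part of *EbpIII* in the GST results was not tested.

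*GstT4* in cluster 1 reached 2532 CPM in the larger matrix, from 3070 UMIs, and 1798 CPM in the smaller, from 787 UMIs. The other 22 groups spanned 282 to 2412 CPM in the larger matrix (median 799) and 421 to 1576 CPM in the smaller (median 793). Cluster 1 was the highest group in both matrices, with a log2 difference of 1.42 (SE 0.21, edgeR adjusted p = 1.87e-06). *GstE9* had 230.1 and 222 CPM in cluster 1, where the other groups had medians of 47.1 and 51.8 CPM. Its log2 difference of 2.33 (SE 0.22, edgeR adjusted p = 1.59e-10) had the smallest p of any member and group, and cluster 5 of the smaller matrix, at 234 CPM from 18 UMIs, was the one group above it. *GstE5* had 196 and 212 CPM in cluster 1, above all 22 other groups in both matrices, against medians of 40.8 and 41.3 CPM (log2 difference 2.28, SE 0.27, adjusted p = 2.53e-08).

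The other epsilon genes of cluster 1 rose by 1.20 to 2.31 on the log2 scale, with *GstE12* at the low end and *GstE2* at the high end. *GstE2* rested on 43 and 11 UMIs, or 35.5 and 25.1 CPM, and nephrocyte-like nuclei lay slightly above it in both matrices with 2 and 4 UMIs. *GstE13* was called from only 10 and 7 UMIs. *GstO2*, an omega enzyme that acts as a thiol transferase, had 64.3 and 54.8 CPM in cluster 1, where the medians of the other groups were 32.8 and 30.8 CPM (log2 difference 0.86, SE 0.24, adjusted p = 0.00342).

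*GstS1* was the member with the largest spread between its highest and lowest group among those seen in every group. It had 897 and 44 UMIs in cluster 5 of the larger and smaller matrix, which is 1014 and 573 CPM. In cluster 15 it had 382 and 757 CPM from 22 and 240 UMIs, and in cluster 1 it had 594 and 162 CPM. Cluster 5 led in the larger matrix and cluster 15 in the smaller, and the medians of the other groups were 152 and 104 CPM beside each. The log2 difference was 2.47 in cluster 5 (SE 0.26, edgeR adjusted p = 6.75e-09), 2.15 in cluster 15 (SE 0.29, adjusted p = 7.23e-07), 1.44 in cluster 26 (SE 0.31, adjusted p = 0.00127) and 1.35 in cluster 1 (SE 0.27, adjusted p = 0.000116). Cluster 26 shares the leading genes *CG10345*, *CG4576* and *CG9095* with cluster 5 and had 505 and 316 CPM.

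At the low end, *GstS1* had 50.2 and 28.1 CPM in cluster 2, and 46.6 and 26.6 CPM in cluster 10, the lowest group in both matrices. Both were called lower, by log2 differences of -1.90 (SE 0.42, adjusted p = 0.000485) and -1.92 (SE 0.47, adjusted p = 0.00219). *GstS1* was thus called higher in cluster 1 and lower in cluster 2, while *GstT4*, *GstT3* and *GstE12* were called higher in both.

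**Figure D3:**
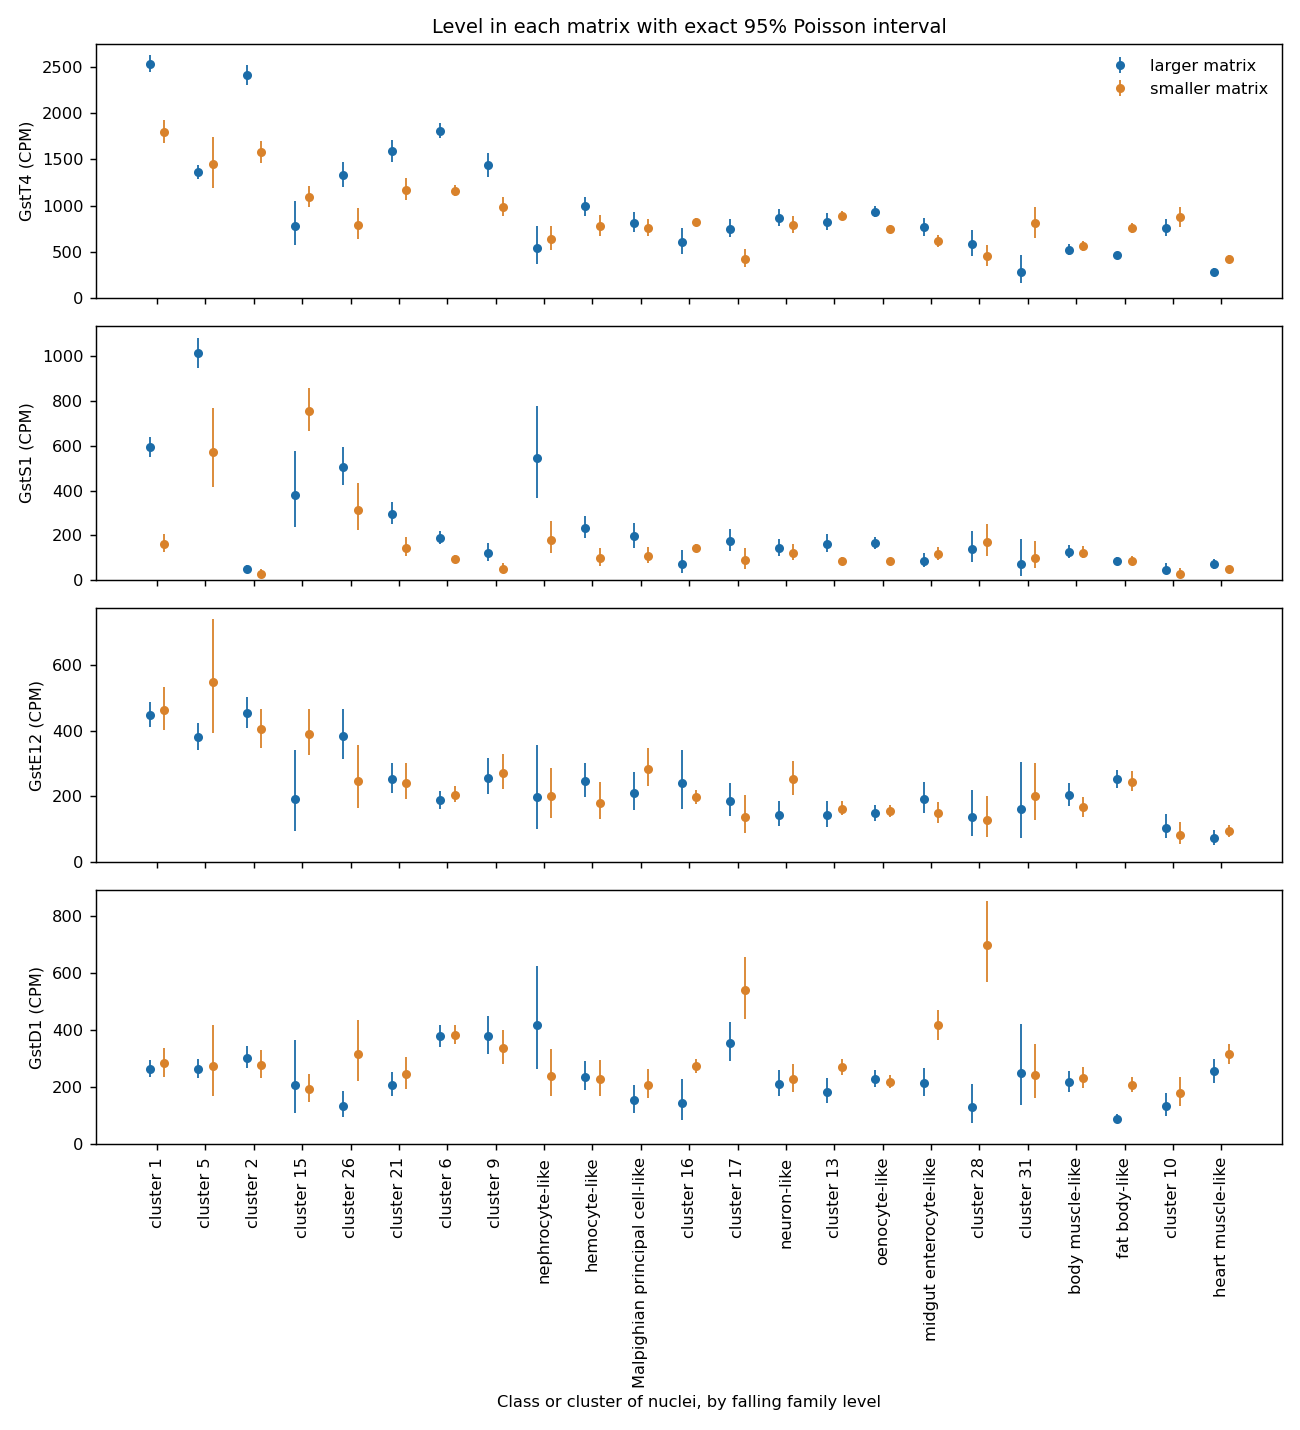
GstT4, GstS1, GstE12 and GstD1 in 23 classes and clusters, in CPM with exact 95% Poisson intervals for counting error, in the larger (blue) and smaller (orange) matrix. GstT4 is highest in clusters 1 and 2, GstS1 in clusters 5 and 15, and GstD1 has its highest point in cluster 28 of the smaller matrix at 701 CPM.

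In cluster 2, 9 members were higher (background 16.7%) and 2 lower (*GstE9* and *GstS1*, background 14.3%). *GstE11* had its highest level of any group there, with 46.6 and 64.8 CPM against medians of 14.5 and 18.3 CPM (log2 difference 1.82, SE 0.30, edgeR adjusted p = 1.02e-05). *GstT4* in cluster 2 had 2412 and 1576 CPM and was next to cluster 1 in both matrices. *GstE12* had 455 and 404 CPM, *GstT3* had 202 and 262 CPM, and the remaining members called higher were *GstE1*, *GstE5*, *GstE6*, *GstO2* and *GstT2*. The *GstT2* call was lost with DESeq2 (adjusted p = 0.0734) and without the block (0.0729). *GstT2* passed the abundance filter through its highest sums, clusters 5 and 2 of the smaller matrix (39.1 and 30.3 CPM). Its calls in these clusters thus say nothing of it. *GstE9*, one of the genes most raised in cluster 1, had 24.5 and 25.9 CPM in cluster 2. Its log2 difference there was -0.91 (SE 0.35, adjusted p = 0.0468), which without the block had adjusted p = 0.0934.

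In cluster 5, 8 members were higher and 0 lower (background 16.9% higher): *GstE5*, *GstE6*, *GstE9*, *GstE12*, *GstS1*, *GstT2*, *GstT3* and *GstT4*. The smaller matrix had only 47 nuclei of this cluster, so its values rest on few UMIs. *GstT2* had 3 UMIs there, a sum that helped it pass the abundance filter, so its call says nothing of it. *GstT3* had 231 UMIs in the larger matrix and 8 in the smaller, or 261 and 104 CPM, which is above all 22 other groups in the larger matrix and above 15 in the smaller. *GstT4* had 1359.9 and 1445 CPM (log2 difference 0.65, SE 0.24, adjusted p = 0.0346), and without the block adjusted p was 0.0573 for it and 0.0554 for *GstT2*. *GstD11*, which was too low to test, had 23 of its 101 UMIs in cluster 5. That is 23.7 and 26.04 CPM, beside 17.4 and 22.1 CPM in cluster 15 and a median of 1.65 CPM over the 23 groups.

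Cluster 15 had 2 members higher, *GstS1* and *GstE5* (background 10.6%). *GstE5* had 1 UMI in the larger matrix and 51 in the smaller, or 17.4 and 161 CPM, above 3 of the 22 other groups in the larger and 20 in the smaller, and without the block its adjusted p was 0.0619. Cluster 26 had *GstE9* and *GstS1* higher, which is 2 of 20 members beside a background of 8.27%. *GstE9* had 143 and 59.7 CPM there from 39 and 7 UMIs, and without the block its adjusted p was 0.0563.

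**Figure D4:**
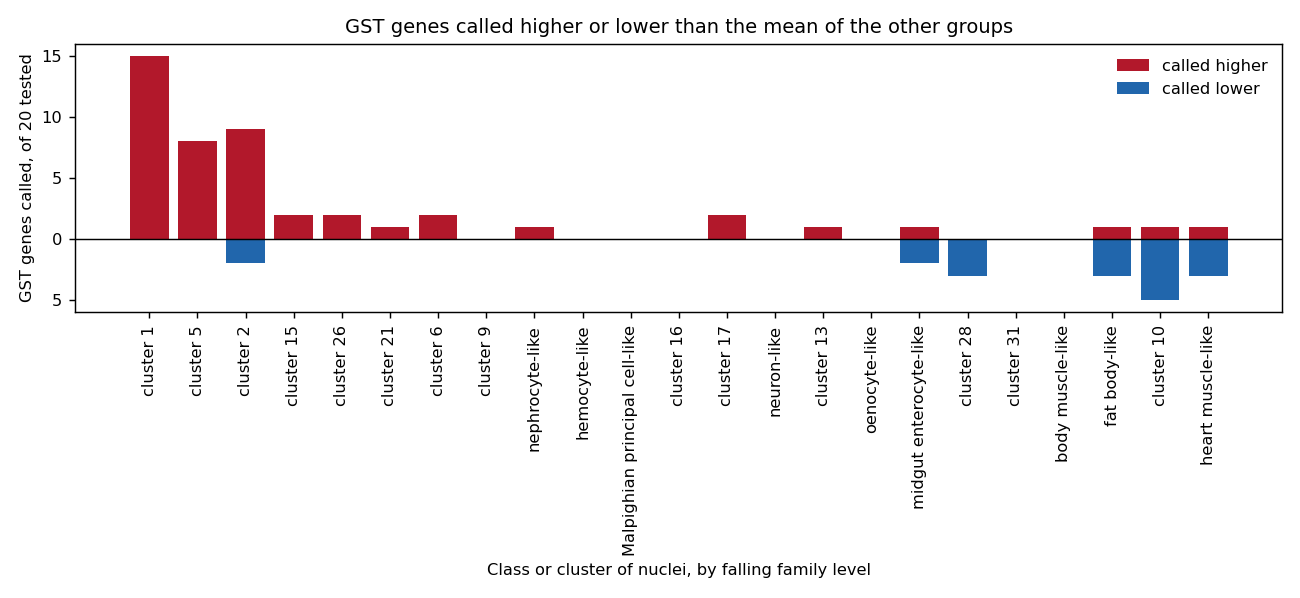
Number of GST genes, of 20 tested, called higher (red, up) or lower (blue, down) in each class or cluster than in the mean of the other 22 groups (edgeR, adjusted p at most 0.05). Cluster 1 has 15 higher, cluster 2 has 9 higher and 2 lower, cluster 5 has 8 higher, and 8 groups have none. The bars include calls of GstD5, of GstE8 in cluster 1 and of GstT2 in clusters 2 and 5, which say nothing of these genes.

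Of the 47 calls of a higher level, 34 (72.3%) fell in clusters 1, 2, 5 and 15, which also held 26.6% of the higher calls of all genes. The 34 include the calls of *GstE8* and *GstT2* that say nothing of these genes. These clusters were picked for the highest family levels in the same data. A larger share for the members follows from that choice, so the shares side by side are no test of enrichment. In the other groups the raised members were few. *GstT4* was higher in cluster 6 (leading genes *Chs2* and *Cht5*, background 7.81%), at 1808 and 1161 CPM from 1848 and 1598 UMIs (log2 difference 0.88, SE 0.23, edgeR adjusted p = 0.00925). It was also higher in cluster 21 (background 8%), at 1586 and 1169.8 CPM. The call in cluster 21 was lost with DESeq2 (adjusted p = 0.0941) and without the block (0.0949). *GstE7* was higher in cluster 6, with 34.3 and 49.4 CPM, and in cluster 13 (background 7.07%), with 51.0 and 42.6 CPM. Both calls were lost with DESeq2 (adjusted p = 0.125 and 0.0571) and without the block (0.281 and 0.237). *GstO3* was higher in cluster 10 (background 14.6%), with 67.1 and 46.5 CPM from 23 and 14 UMIs, a call that was lost with no filter on low counts (adjusted p = 0.13).

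Against all 22 other groups, fat body-like nuclei had 1 of 20 members higher (*GstT1*, background 20.4%) and 3 lower (*GstD1*, *GstE5* and *GstE6*, background 19.3%). *GstT1* had 53 and 71 UMIs there, or 38.8 and 62.5 CPM, where the other groups had medians of 22.4 and 37.8 CPM (log2 difference 0.97, SE 0.25, edgeR adjusted p = 0.00147). It was above all 22 other groups in the smaller matrix and above 21 in the larger. *GstE6* had 16 and 7 UMIs, or 11.7 and 6.16 CPM, where the medians were 37.1 and 34.99 CPM (log2 difference -1.83, SE 0.38, adjusted p = 0.000137). *GstE5* had 17.6 and 13.2 CPM (log2 difference -1.56, SE 0.41, adjusted p = 0.00214). *GstD1* had 87.8 CPM in cluster 0 of the larger matrix, the lowest group there, and 208 CPM in cluster 3 of the smaller (log2 difference -0.78, SE 0.28, adjusted p = 0.0270), and without the block the call was lost (adjusted p = 0.132). *GstE12*, called higher among the named classes at 252 and 245 CPM, had a log2 difference of 0.31 against all groups (SE 0.18, adjusted p = 0.18).

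Heart muscle-like nuclei had 3 members lower (*GstE12*, *GstE9* and *GstT4*, background 5.15%) and 1 of 20 higher (*GstD1*, background 17.4%). *GstT4* had 282 and 421 CPM from 160 and 424 UMIs and was the lowest group in both matrices (log2 difference -0.84, SE 0.28, edgeR adjusted p = 0.0249). Without the block its adjusted p was 0.0541. *GstE9* had 17.6 and 17.9 CPM and lost its call without the block (adjusted p = 0.0807). *GstE12* had 72.2 and 93.4 CPM, the lowest group in the larger matrix and next to cluster 10 in the smaller (log2 difference -0.90, SE 0.22, adjusted p = 0.00192). *GstD1* went the other way, with 255 and 316 CPM from 145 and 318 UMIs (log2 difference 0.70, SE 0.25, adjusted p = 0.0423). That call was lost with DESeq2 (adjusted p = 0.124) and without the block (0.144). Its CPM lay above 15 of the 22 other groups in the larger matrix and above 17 in the smaller.

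*GstD1* was the most even of the 4 members with most UMIs. Its highest group, cluster 28, was 3.05 times its lowest, fat body-like nuclei, while *GstS1* spanned 26.3 times and *GstT4* 6.30 times. The level in cluster 28 (leading genes *CG34203*, *CAH5* and *byn*) differed between the matrices, with 129 CPM from 16 UMIs in the larger and 701 CPM from 99 UMIs in the smaller, and it was not called. This cluster raised the female germline markers *vas*, *otu* and *orb*, none among its leading genes. That list summed to 113 and 106 CPM there and the Malpighian stellate cell list to 2482 and 1210 CPM. Their part in the levels of cluster 28 was not tested. Cluster 17 (*Shawl*, *Egfrap*, 2 members higher, background 6.94%) had 355 and 539.8 CPM (log2 difference 0.84, SE 0.26, edgeR adjusted p = 0.0390), which was lost with DESeq2 (adjusted p = 0.0649) and without the block (0.133). Cluster 17 had 3 of 6 Malpighian stellate cell markers raised (*SecCl*, *Lkr* and *Drip*), and that list summed to 3071 and 5712 CPM there, with the midgut enterocyte list at 2809 and 4049 CPM. Their part in the levels of cluster 17 was not tested. Midgut enterocyte-like nuclei had 215 and 417 CPM, and nephrocyte-like nuclei 417 and 241 CPM, with no call in either.

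*GstD5* had 86 UMIs in all and passed the abundance filter through the groups where it is high, so its 3 calls among the 47 say nothing of it and its values are given as a description. It had 5 and 5 UMIs in cluster 17 (16.6 and 27.5 CPM), 4 and 10 UMIs in midgut enterocyte-like nuclei (11.4 and 17.01 CPM) and 3 and 1 UMIs in nephrocyte-like nuclei, where the other groups had medians of 0 and 2.78 CPM. *GstD10*, another delta gene and too low to test, had its highest levels in the same cluster 17 (6 and 5 UMIs, 19.9 and 27.5 CPM) and in midgut enterocyte-like nuclei (9 and 6 UMIs, 25.8 and 10.2 CPM). Its median over the 23 groups was 3.81 CPM.

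Midgut enterocyte-like nuclei had 2 members lower, *GstE1* and *GstT3* (background 0.612%). *GstE1* had 4 and 7 UMIs, or 11.4 and 11.9 CPM, where the other groups had medians of 26.8 and 28.9 CPM (log2 difference -1.34, SE 0.40, edgeR adjusted p = 0.0256), and DESeq2 gave adjusted p = 0.0551. *GstT3* had 57.2 and 44.2 CPM (log2 difference -0.90, SE 0.29, adjusted p = 0.0493), and without the block adjusted p was 0.0957.

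Cluster 10 (leading genes *CG18268* and *CG8483*) had 5 members lower: *GstE5*, *GstE6*, *GstE12*, *GstS1* and *GstT3* (background 11.6%). Without the block *GstE5* and *GstE6* were lost there (adjusted p = 0.0586 and 0.0582). *GstT3* had 10 UMIs in each matrix, or 29.2 and 33.2 CPM, below all 22 other groups in both (log2 difference -1.40, SE 0.36, edgeR adjusted p = 0.00278). Cluster 28 had 3 members lower: *GstE12*, *GstT1* and *GstT4* (background 3.52%). *GstT1* there had 1 UMI of 123680 in the larger matrix and 0 of 141269 in the smaller, and its call was lost with DESeq2 (adjusted p = 0.149). No member was called in body muscle-, neuron-, oenocyte-, hemocyte- or Malpighian principal cell-like nuclei, nor in clusters 9, 16 and 31, when all 23 groups were compared.

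*GstE8*, *GstE13*, *GstO3*, *GstT1* and *GstT2* were called in at least 1 group but did not differ over all 23 groups in the F test (adjusted p = 0.179, 0.558, 0.122, 0.0957 and 0.298 from edgeR). *GstZ1*, whose product takes part in tyrosine breakdown, had 111 and 99 UMIs and was too low to test. *GstO1*, a dehydroascorbate reductase, had 73 and 84 UMIs and was not tested either, nor were *GstD9* and *GstD10*.

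Profiles over the 23 groups were compared by Pearson's r of log2(CPM + 1) between the 24 genes, as a description, since groups share libraries and low genes add noise. The most alike pair was *GstE12* and *GstT3* (r = 0.91), which lie on different chromosomes, followed by *GstE5* with *GstT3* (0.85), *GstE5* with *GstE12* (0.82) and *GstE2* with *GstS1* (0.81). The median r was 0.43 over 70 pairs of the same class and 0.13 over 206 pairs of different classes. Most of the 70 were epsilon pairs, which ran from -0.31 to 0.82, so the 0.43 mainly describes that class. Delta pairs ran from -0.43 to 0.35, omega pairs from -0.12 to 0.50 and theta pairs from -0.29 to 0.75.

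The groups with most GST RNA also had most RNA of ribosomal proteins. The 91 ribosomal protein genes took 8.59% and 7.78% of UMIs in cluster 1 of the larger and smaller matrix, 5.43% and 5.75% in cluster 2, 11.7% and 9.66% in cluster 5, and 4.52% and 9.61% in cluster 15. They took 1.78% and 1.86% in heart muscle-like nuclei and 3.34% and 3.33% in nephrocyte-like nuclei. Over the 23 groups the family's CPM and this share had r = 0.77 in the larger matrix and 0.92 in the smaller, and the family's CPM and the mitochondrial share of UMIs had r = 0.42 and 0.69. With the median depth it had r = -0.03 and -0.25. The groups share a library within each matrix, so these are descriptions. The part of these shares in the GST results was not tested.

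**Figure D5:**
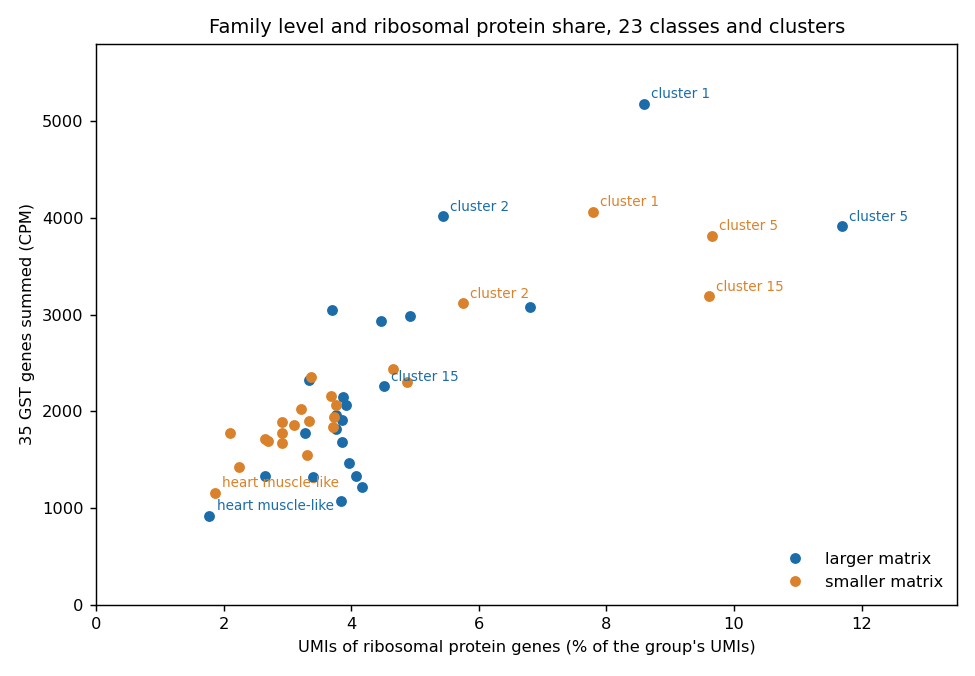
Sum of the 35 GST genes in CPM against the share of UMIs from 91 ribosomal protein genes, for 23 classes and clusters in the larger (blue) and smaller (orange) matrix. Cluster 1 is highest on the vertical axis in both matrices (5184 and 4065 CPM), cluster 5 of the larger matrix is farthest right (11.7%), and heart muscle-like nuclei are lowest and farthest left.

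Of 18 glutathione-linked genes matched, 13 were tested and 11 differed among the 23 groups (background 72.5%) and 10 among the 9 named classes (background 58.4%). Among the groups, 37 pairs (12.4%) were called higher and 20 (6.69%) lower, where 10.3% and 5.11% of all pairs were. Among the named classes 13 (11.1%) and 10 (8.55%) were, where the background was 9.39% and 4.62%. *Mgstl*, a microsomal GST of another protein family, was higher in clusters 1, 2, 5 and 15 with log2 differences of 1.47, 1.48, 1.61 and 1.19 (SE 0.20 to 0.23), and *Sod1*, the cytosolic superoxide dismutase, by 1.52, 1.36, 1.57 and 0.80 (SE 0.16 to 0.20). *Gclc*, the catalytic subunit of the enzyme that starts glutathione synthesis, split these clusters. It was higher in cluster 1 (log2 difference 0.71, edgeR adjusted p = 0.0014) and cluster 5 (0.54, adjusted p = 0.0261) and lower in cluster 2 (-1.47, adjusted p = 3.05e-06). *MRP*, an exporter of glutathione conjugates, was lower in all 4 clusters, by log2 differences of -0.94 to -1.29.

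The linked genes were also called in some of the named classes. *Cat*, which encodes catalase, was higher in oenocyte-like nuclei by 2.33 (log2, SE 0.18, edgeR adjusted p = 1.3e-12) against all 22 other groups, and *Keap1* by 1.42 (SE 0.20, adjusted p = 1.16e-06), with no GST gene called there. In fat body-like nuclei *cnc* was higher by 1.29 (SE 0.14, adjusted p = 1.34e-09) and *Gclm*, the modifier subunit that pairs with *Gclc*, by 1.38 (SE 0.23, adjusted p = 7.09e-06), while *Sod1*, *Mgstl*, *Cat* and *Trxr1* were lower. In midgut enterocyte-like nuclei *Gclc* was higher by 1.24 (SE 0.17, adjusted p = 5.68e-07) and *MRP* by 0.84 (SE 0.22, adjusted p = 0.00831).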

How the data were processed

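Adult nephrocyte preparations (1 female and 1 male sample) were profiled by single-nucleus RNA-seq on the 10x platform. The deposited values are unnormalised UMI counts in 2 gene-by-barcode tables, which the authors made with the cellranger count pipeline. Pipeline version, genome build and gene annotation: not given in the sources used here. Both tables hold barcodes with at least 500 UMIs.

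The GST genes and all gene lists were chosen with earlier results of these data known. Nuclei with at least 200 genes were clustered (scanpy 1.11.5, Leiden resolution 2, 2000 variable genes, 30 principal components) without the GST and glutathione-linked genes. Doublets were not removed. A cluster took the name of the class with most markers raised at least 3 times, at least 3 of them. A cluster with 3 raised markers and none among its 10 leading genes was left unnamed, a rule added after the names were seen.

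UMIs were summed per group and matrix and tested with edgeR 4.0.16 (TMM, filterByExpr, quasi-likelihood, the matrix as a block, since sums of a matrix share a library), each group against the mean of the others, with Benjamini-Hochberg adjustment over all genes. The planned fit held the 9 named classes, and the fit of 23 groups was added after seeing the data. With 1 library per matrix and the matrix as a block, p-values measure how far the differences between groups varied between the 2 matrices. They do not measure variation between animals or between repeat libraries. Members with at least 100 UMIs were described, and others are given by counts, apart from *GstD5*, which was named after its values were seen. Intervals are exact Poisson and cover counting error only. DESeq2 1.42.0, no filter, no block, another resolution, the genes kept in clustering, and the removal of a matrix, of shared barcodes or of the top nucleus were tried instead. The test was also run on simulated counts with a fixed spread for every gene and no difference between the matrices. That setting is simpler than the data, so the run does not show how the test behaves on them. Gene symbols came from a RefSeq table (Release 6), which named all but 69 of 15423 genes.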

Additional observations from a re-analysis of the deposited data

Results flagged for a closer look

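*GstO3* stood out in a cluster that the comparisons did not use, because only 1 of its 475 nuclei lay in the smaller matrix. In cluster 12 (leading genes *CG34327*, *CG13155* and *Cpr49Ab*, with the epidermis markers *grh*, *obst-A* and *obst-E* raised) it had 129 UMIs, which is 119 CPM with an exact 95% Poisson interval of 99.6 to 142. Over both matrices the highest of the 23 compared groups, cluster 10, had 57.5 CPM. Within the larger matrix cluster 15 had 104 CPM from 6 UMIs, with an interval of 38.3 to 227, which holds the level of cluster 12, and cluster 10 had 67.1 CPM. The difference was not tested, since cluster 12 has no second library.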

How the results depend on the processing

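Counts of calls for the 9 named classes moved with several settings. Members that differed among the classes numbered 6, and 1 without the replicate block, 2 at Leiden resolution 1 and 3 with the genes kept in the clustering. Pairs called higher numbered 6, and 2 without the block and 3 with the genes kept. Pairs called lower numbered 5, and 3 with DESeq2, without the block or at resolution 1. Linked pairs called lower numbered 10, and 1 without the block and 6 at resolution 1. With the genes kept and at resolution 1 the fat body-like class left the fit, because its cluster in the smaller matrix took no name.

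Over 23 groups, members' pairs called lower numbered 18, and 11 without the block or at resolution 1, and linked pairs called lower numbered 20, and 12 without the block. Of the 65 calls of members, 56 remained with DESeq2, 62 with no filter, 47 without the block and 65 without the shared barcodes, and 0 changed direction. Depth limits the 11 rare members and the groups with few nuclei in 1 matrix, where a member can rest on under 10 UMIs.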

Other observations

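*GstZ2*, the partner of *GstZ1* on chromosome arm 3R, had 17 of its 36 UMIs in cluster 12 and 6 in cluster 8 (leading genes *Cpr49Ac*, *yl* and *Ance-3*), 2 clusters found almost only in the larger matrix. In male accessory gland-like nuclei, found only in the smaller matrix, the family summed to 1828 CPM, with an exact 95% Poisson interval of 1783 to 1873. The accessory gland marker list summed to 1128 CPM in this class and the spermatocyte list to 1166 CPM. In trachea-like nuclei, with 452 of 453 nuclei in the larger matrix, the family summed to 1506 CPM in that matrix. These levels have no second library. The trachea-like class raised *trh*, *btl*, *verm*, *uif* and *rib*, and none of them is among its leading genes. In the larger matrix its trachea list summed to 1127 CPM and its ovarian follicle cell list to 3881 CPM, so the name is uncertain. Cluster 31, which raised *trh*, *btl* and *serp*, had 32 and 57 nuclei in the larger and smaller matrix and took no name.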
